A study of Mus musculus with 2 samples.

Results

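Recirculating CD4 T cells were followed through their T cell receptors, to see which of them belonged to clones that also held cytotoxic or Th17 cells in the same mouse. Recirculating here is the authors' name for a cluster of colonic T cells. A member was a cell of that cluster whose clonotype, the authors' name for one receptor, was carried by 2 or more cells of the same mouse, whatever their cluster. Of 18860 cells in the series, 4292 were recirculating and 3771 of these had a clonotype. The 2686 members remained after 1085 cells from clones of a single cell were set aside. They fell into 1220 clones. A member was called effector-sharing where its clonotype also occurred in a cytotoxic or Th17 cell of that mouse, and non-sharing where it occurred in neither. The effector-sharing side held 1781 cells and the non-sharing side 905.

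The cells came from the colons of 12 Rag-/- mice with colitis caused by transferred CD4+ T cells. Rag-/- hosts lack their own mature lymphocytes of the T and B lineages, so the T cells descended from the transfer. The 6 animals called WT-labelled had received wild-type cells, described in the labels as naïve or as CD4+, CD45RBhigh and CD25-. The 6 called KO-labelled had received CD4+ cells deficient in BCL-6, a transcriptional repressor needed by follicular helper T cells. How the gene was removed, the donors, and the age and sex of the animals are not given in the sources used here. TCRb+CD4+ cells were sorted, marked with 1 hashtag antibody per mouse and read in 1 pooled library of 5′ chemistry. All sums below are per mouse, and the mouse is the replicate.

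A T cell receptor is assembled anew in each developing T cell by joining gene segments, so cells with the same alpha and beta junctions usually descend from 1 ancestor. Stem-like T cells keep the transcription factor TCF-1 (gene Tcf7), the survival receptor encoded by Il7r and receptors for leaving tissue, and give rise to effector cells on renewed stimulation. Cytotoxic CD4 T cells carry granzymes and the chemokine Ccl5. Th17 cells make cytokines such as those encoded by Il17a and Il22. A clone found both among recirculating and among effector cells links those states by descent, but gives no direction from one to the other.

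Clones that illustrate each fate are shown by the nucleotide sequence of their CDR3, the junction that identifies a clone. Sequences run 5′ to 3′, and capitals mark the first and last codon of the junction. In WT-labelled mouse 1, the largest clone of the members held 235 cells, of which 56 were recirculating, 89 cytotoxic and 26 Th17. In KO-labelled mouse 6, a clone of 140 cells held 56 recirculating, 6 cytotoxic and 43 Th17 cells. Both clones therefore spanned both effector subsets.
WT-labelled mouse 1, both fates, alpha: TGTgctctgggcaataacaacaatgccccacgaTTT
WT-labelled mouse 1, both fates, beta: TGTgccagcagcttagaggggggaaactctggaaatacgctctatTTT
KO-labelled mouse 6, both fates, alpha: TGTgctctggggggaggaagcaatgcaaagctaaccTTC
KO-labelled mouse 6, both fates, beta: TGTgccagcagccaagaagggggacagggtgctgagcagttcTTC

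Other clones reached 1 effector subset or none. A clone of WT-labelled mouse 2 had 14 recirculating and 21 Th17 cells among its 43, and no cytotoxic cell. A clone of WT-labelled mouse 3 had 12 recirculating and 7 cytotoxic cells among its 20, and no Th17 cell. A further clone of WT-labelled mouse 3 had 12 recirculating cells among its 18, and neither effector type.
WT-labelled mouse 2, Th17 only, alpha: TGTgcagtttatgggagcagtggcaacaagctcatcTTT
WT-labelled mouse 2, Th17 only, beta: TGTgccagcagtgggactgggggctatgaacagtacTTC
WT-labelled mouse 3, cytotoxic only, alpha: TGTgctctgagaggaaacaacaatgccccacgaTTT
WT-labelled mouse 3, cytotoxic only, beta: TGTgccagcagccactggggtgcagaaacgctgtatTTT
WT-labelled mouse 3, neither, alpha: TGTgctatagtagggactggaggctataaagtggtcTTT
WT-labelled mouse 3, neither, beta: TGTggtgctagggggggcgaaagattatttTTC

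A pair of clonotypes from KO-labelled mouse 5 shows how the rule can split a lineage. The first had 121 cells, 19 of them recirculating and 79 in the authors' unnamed cluster 3, and was counted as cytotoxic only because of 1 cytotoxic cell. The second had 34 cells, 7 of them recirculating, had no alpha chain recorded and was counted as non-sharing. Both carried the same beta junction.
KO-labelled mouse 5, first clonotype, alpha: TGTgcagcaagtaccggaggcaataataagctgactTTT
KO-labelled mouse 5, both clonotypes, beta: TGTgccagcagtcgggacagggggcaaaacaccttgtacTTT

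Among all 905 non-sharing cells, 158 (17.5%) had a beta sequence that a cytotoxic or Th17 cell of the same mouse also carried. Of the 6367 clonotypes in the series, 20 occurred in 2 mice and none in more. They covered 36 members. Junction lengths were compared without a test. The median beta junction was 42 bases in each of the 4 classes, and the median alpha junction was 42 bases in the 3 sharing classes and 39 in non-sharing clones.

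The label of the cluster was checked against its markers. S1pr1, the receptor that draws T cells out of tissue, stood at 119 CPM (UMIs of the gene scaled to a common library total, here pooled over all members), against 40.5 CPM in cytotoxic and 22.3 CPM in Th17 cells. Klf2, the transcription factor that drives S1pr1, was at 463 CPM in members, 542 CPM in cytotoxic and 114 CPM in Th17 cells, so it did not set members apart from cytotoxic cells. Recirculating is therefore used below as the name of the cluster only.

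Each mouse gave 1409 to 1736 cells and 4252124 to 5523025 UMIs, of which the effector-sharing side held 134459 to 866443 UMIs and the non-sharing side 138084 to 590091 in the 11 mice with 20 or more cells on both sides. KO-labelled mouse 2 had 18 effector-sharing members and was left out of the paired fits. Bcl6 transcripts were not lower in KO-labelled mice. In non-sharing members Bcl6 was at 72.8, 92.8, 64.95, 72.1 and 72.9 CPM in KO-labelled mice 1, 3, 4, 5 and 6 while WT-labelled mice 1 to 6 had 36.2, 16.5, 54.95, 55.4, 6.93 and 53.9 CPM, so each KO-labelled mouse lay above each WT-labelled one. In effector-sharing members the ranges overlapped, at 47.3 to 95.8 CPM and 37.2 to 65.9 CPM. A loss of Bcl6 under the KO label was thus not seen in transcript counts. Which part of the gene was removed is not given, and 5′ reads need not lie in it, so the counts do not check the deletion. Every comparison of genotypes below rests on the labels alone.

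Members were divided among 4 fates. Of the 1220 clones, 267 also held cytotoxic but not Th17 cells and contributed 538 members. A further 302 clones held Th17 but not cytotoxic cells and contributed 636 members. Both effector types occurred in 111 clones with 607 members, and 540 clones with 905 members held neither. The clones in both were the large ones, with a median of 12 cells, against 5 for cytotoxic only, 4 for Th17 only and 2 for neither. A single effector cell decided the class of 152 (56.9%) of the cytotoxic-only and 174 (57.6%) of the Th17-only clones. Among non-sharing clones, 143 consisted of recirculating cells alone, and the rest reached the unnamed, cycling or regulatory clusters.

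Sharing rose with clone size, which the rule itself favours, since a larger clone has more chances to hold an effector cell. Of clones with 2 cells, 136 of 429 (31.7%) were effector-sharing. The figure was 54.1% for 3 to 5 cells, 78.6% for 6 to 10 cells and 95.8% for 11 or more. At each size, WT-labelled mice had the higher figure. For clones of 2 cells it was 45.9% against 15.2% in KO-labelled mice, and for clones of 11 or more cells 99.0% against 91.5%. These figures pool clones over mice and carry no test.

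**Figure D1:**
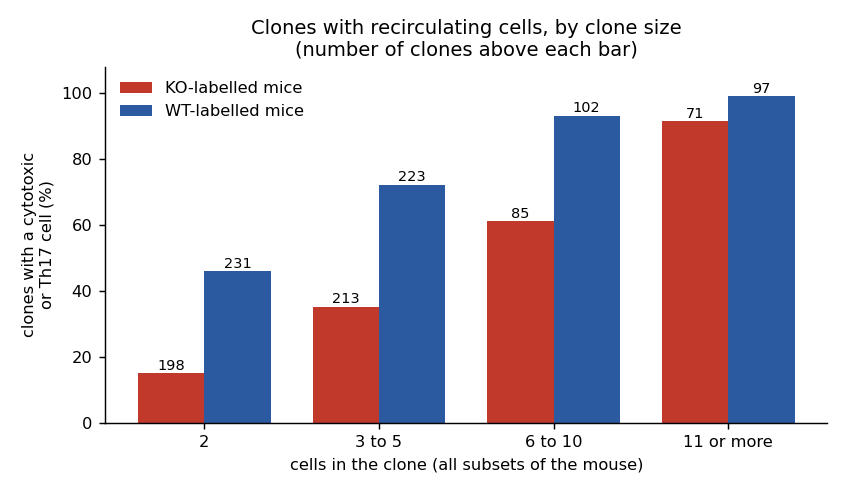
Percent of clones with recirculating cells that also held a cytotoxic or Th17 cell (vertical axis), by number of cells in the clone (horizontal axis) and genotype label, with the number of clones above each bar. From the smallest to the largest clones the share climbs from 15.2% to 91.5% for the KO label and from 45.9% to 99.0% for the WT label.

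By mouse, the effector-sharing part of the members was smaller in KO-labelled mice. It was 46.2%, 30%, 54.8%, 65.1%, 50% and 59.5% in KO-labelled mice 1 to 6 and 86.2%, 78.5%, 67.4%, 67.6%, 78.3% and 75.5% in WT-labelled mice 1 to 6. The groups did not overlap. The means were 50.9% ± 12.2 and 75.6% ± 7.19 (SD, n = 6 mice each, two-sided exact permutation p = 0.00216, the smallest these groups allow, adjusted p = 0.00866 over 4 shares). None of the parts making up this share passed the test. Cytotoxic-only members took 20.002% ± 8.76 against 21.1% ± 10.3 (exact p = 0.859). Th17-only members took 17.2% ± 9.74 against 29.7% ± 13.96 (exact p = 0.106, adjusted p = 0.188), and members of clones in both took 13.7% ± 14.5 against 24.8% ± 9.597 (exact p = 0.141, adjusted p = 0.188). The rule for members favours sharing, since a lone recirculating cell could enter through an effector cell of its clone. With 2 or more recirculating cells required per clone, the effector-sharing means were 61.0% under the KO label and 75.1% under the WT label (exact permutation p = 0.0152). The groups then overlapped.

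The number of effector cells that could reveal sharing differed between genotypes too. KO-labelled mice had 72 to 282 cytotoxic or Th17 cells with a clonotype (median 203), and WT-labelled mice 615 to 813 (median 679). With the effector cells of every mouse reduced to 72, by the exact expected share, effector-sharing members took 33.6% against 31.6% (exact p = 0.656). The members stayed as chosen with all effector cells. A cell that was a member only through effector cells since removed therefore counted as non-sharing. The part of such cells in the reduced shares was not tested. Among these fixed members, the genotype difference in sharing was present with all sampled effector cells and not with equal numbers of them.

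**Figure D2:**
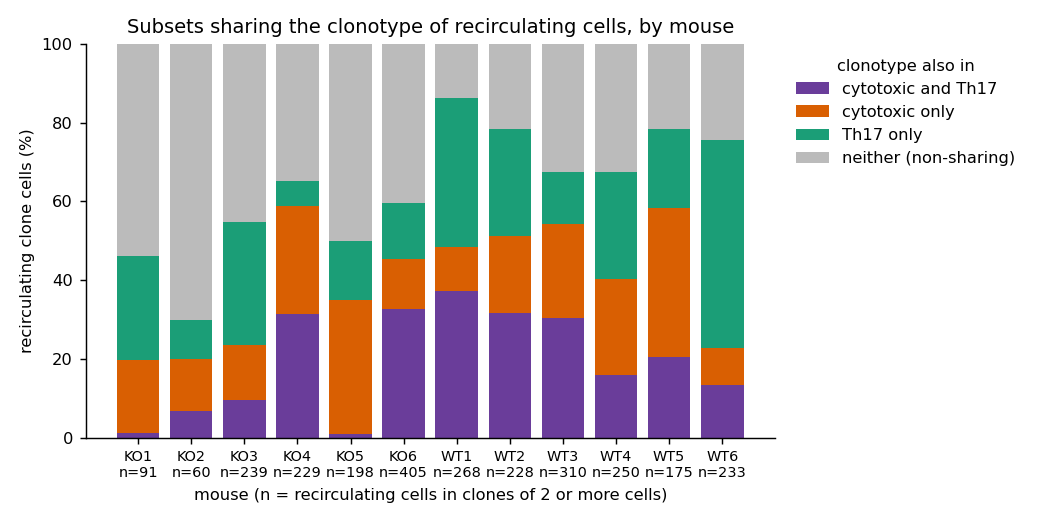
Percent of recirculating clone cells (vertical axis) whose clonotype also occurred in both effector subsets, in cytotoxic cells only, in Th17 cells only or in neither, for each of the 12 mice, with the number of members under each bar. The non-sharing part spans 34.9% to 70% in the KO-labelled animals and 13.8% to 32.6% in the others.

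Effector-sharing cells differed from non-sharing cells of the same cluster and mouse in a small set of genes. Higher were Ccl5 and Gzmb of cytotoxic cells, the inhibitory receptor gene Klrc1, 6 genes of the cytoskeleton and of galectin and S100 proteins, and Litaf and Gem. Lower were Tcf7, Il7r and Ccr7, which are genes of stem-like cells, and Maf, Jun and Nfkbia. The test took 1763 effector-sharing and 863 non-sharing cells of 11 mice, summed per mouse and side, with the mouse as a block (edgeR quasi-likelihood F test, Benjamini-Hochberg adjusted p under 0.05). It called 26 of 4269 genes (0.609%), 17 higher and 9 lower on the effector-sharing side. Unadjusted p was under 0.05 for 390 genes. In CPM the 2 sides overlapped across mice for each of the 26 genes, and the test rests on the differences within mice.

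Litaf, which encodes a small protein of late endosome membranes (chromosome 16, 10959275 to 11066157, minus strand, GRCm38), had the largest rise among the called genes of both sufficient level and steady direction. Its lowest, median and highest CPM over 11 mice were 27.7, 76.3 and 140.7 on the non-sharing side and 74.4, 126 and 278 on the effector-sharing side. The log2 fold change was 0.89 ± 0.12 (SE, edgeR adjusted p = 1.9e-05), and it was higher in 10 of 11 mice. The exception was KO-labelled mouse 1, where it went from 115 to 74.4 CPM. Gem, a small GTP-binding protein induced by activation (chromosome 4, 11704457 to 11714752, plus strand), ran from 49.5 over 123.7 to 183 CPM and from 96.5 over 197 to 244 CPM on the same scale. It rose by 0.76 ± 0.12 (edgeR adjusted p = 0.00031) and was higher in 10 of 11 mice, WT-labelled mouse 1 being the exception.

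Ccl5, a chemokine stored by cytotoxic cells (chromosome 11, 83525778 to 83530518, minus strand), had the smallest p. Non-sharing cells had a lowest, median and highest value of 728, 1383 and 1989 CPM, and effector-sharing cells of 1019, 2069 and 3616 CPM. The log2 fold change was 0.62 ± 0.08 (SE, edgeR adjusted p = 1.3e-05). Ccl5 was higher in 9 of 11 mice and all but level in WT-labelled mice 1 and 6, where 1086 and 1019 CPM on the non-sharing side stood against 1057 and 1019 CPM. Granzyme B, from Gzmb, rose by 0.57 ± 0.10 (adjusted p = 0.00097) and Klrc1 by 0.76 ± 0.14 (adjusted p = 0.0017), each in 9 of 11 mice. Klrc1 has close paralogs that could share its reads. Of 11 tested genes of the list of cytotoxic and natural killer-type genes, Gzmb and Klrc1 rose and none fell. In that list 10 lay above 0 and the median log2 fold change was 0.21, against -0.00 over all genes tested. Nkg7, a granule protein, was at 0.21 ± 0.05 and missed the threshold (edgeR adjusted p = 0.063), as did Ifng (0.51 ± 0.13) and Cxcr6 (0.31 ± 0.08) with the same adjusted p. The markers of cytotoxic cells summed to a median of 4321 CPM on the effector-sharing side (range 1910 to 7204) and 3139 CPM on the other (1796 to 3806), higher in 9 of 11 mice. All 7 were detected, and Ccl5, Gzmb and Nkg7 are among them. The part of this marker sum in the other differences was not tested.

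Of 14 tested genes of the cytoskeleton and of galectin and S100 proteins, many of which are more abundant in activated and memory T cells, 6 rose and 8 did not pass. All 14 lay above 0 with a median of 0.18 on the log2 scale, while 2108 of all 4269 genes lay above 0 with a median of -0.00. Annexin A2 (Anxa2, a membrane-binding protein, chromosome 9, 69453620 to 69491795, plus strand) had a lowest, median and highest value of 153, 319 and 479 CPM in non-sharing and 285, 396 and 582 CPM in effector-sharing cells. It rose by 0.46 ± 0.08 (edgeR adjusted p = 0.0012), in every mouse but KO-labelled mouse 1. The calcium-binding protein gene S100a4 rose by 0.31 ± 0.06, the intermediate filament gene Vim by 0.25 ± 0.045, and the galectin genes Lgals1 and Lgals3 by 0.23 ± 0.04 and 0.34 ± 0.08. Crip1 rose by 0.24 ± 0.05. Ermn, an actin-binding protein outside the list, rose by 0.70 ± 0.13 (adjusted p = 0.0012).

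Chaperones and enzymes gave single calls. Hspa5, the main chaperone of the endoplasmic reticulum, rose by 0.18 ± 0.04 (edgeR adjusted p = 0.026) and was higher in 11 of 11 mice. Pdia6, which forms disulfide bonds there, rose by 0.47 ± 0.11. Hspa5 was the only call among 11 tested heat shock genes, of which 4 lay above 0 with a median of -0.005. In that list Hsph1, Dnajb1 and Hspa1b were at -0.39 ± 0.12, -0.27 ± 0.11 and -0.33 ± 0.15 and did not pass. Tpi1, a glycolytic enzyme, rose by 0.50 ± 0.12 (adjusted p = 0.045). It was the only one of 14 tested glycolysis genes to be called, although 13 lay above 0 with a median of 0.20. Itm2b, a membrane protein, rose by 0.21 ± 0.04. Cd74, the invariant chain of MHC class II and abundant in B and myeloid cells, rose by 0.87 ± 0.16 from a median of 55.9 to 84.8 CPM. Beside it, the sum of the 3 detected B and plasma cell markers had medians of 11.2 and 12.5 CPM on the effector-sharing and non-sharing side, and that of the 5 detected myeloid markers 149 and 148 CPM. Each was higher on the effector-sharing side in 6 of 11 mice.

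Of 13 tested stem-like and recirculation genes, 3 fell and 10 did not pass. Tcf7 (chromosome 11, 52252371 to 52283014, minus strand) had a lowest, median and highest value of 112, 163 and 224 CPM in non-sharing and 81.5, 126 and 149.5 CPM in effector-sharing cells. It fell by 0.43 ± 0.09 on the log2 scale (SE, edgeR adjusted p = 0.011) and was lower in 10 of 11 mice. The exception was KO-labelled mouse 4, at 112 and 116 CPM. Il7r (chromosome 15, 9505788 to 9530176, minus strand) went from a median of 1030 CPM (867 to 1157) to 877 CPM (718 to 1006). It fell by 0.26 ± 0.05 (adjusted p = 0.0037), also in 10 of 11 mice, with WT-labelled mouse 1 the exception. Ccr7, the receptor that guides T cells to lymph nodes, fell by 0.95 ± 0.20 (adjusted p = 0.0091) but was lower in only 8 of 11 mice, from a median of 65.9 CPM (14.5 to 267) to 38.1 CPM (1.97 to 98.2). The median of the 13 genes was -0.26, and 2 of them lay above 0.

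Genes of exit from tissue did not pass the test. Klf2 stood at medians of 481 and 448 CPM on the non-sharing and effector-sharing side, and the fitted log2 difference was 0.04 ± 0.07 (edgeR adjusted p = 0.956, higher in 7 of 11 mice). S1pr1 was at -0.32 ± 0.10, lower in 10 of 11 mice (unadjusted p = 0.0038, adjusted p = 0.184). Lef1, a partner of TCF-1, was at -0.17 ± 0.10 (adjusted p = 0.633). The sum of the 8 recirculating markers, all detected, was lower on the effector-sharing side in 11 of 11 mice, with medians of 1913 CPM (1673 to 2266) and 2248 CPM (1880 to 2493). That sum includes Tcf7, Il7r and Ccr7.

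A further 6 genes fell. The transcription factor gene Maf fell by 0.40 ± 0.10 (edgeR adjusted p = 0.047), Jun, a part of the AP-1 factor, by 0.42 ± 0.10 (adjusted p = 0.021), and the kinase gene Nlk by 0.87 ± 0.19. Maf was the only call among 7 tested Th17 genes, of which 5 lay above 0 with a median of 0.15. Atp1b3, a subunit of the sodium pump, fell by 0.34 ± 0.07 (adjusted p = 0.012) and was lower in 11 of 11 mice. Ppp1r15a, which restarts protein synthesis after stress, fell by 0.24 ± 0.06, and Nfkbia, the inhibitor of NF-kB, by 0.17 ± 0.04. Each of the lists for Th1, regulatory, follicular helper, inhibitory receptor, tissue residence, interferon-stimulated and cell cycle genes had 0 calls by edgeR among 4 to 13 tested members (57 in all, 16 of them at an unadjusted p under 0.05). Tbx21, Cd69, Itgae and Bcl6 were at 0.33 ± 0.20, -0.17 ± 0.06, -0.15 ± 0.15 and 0.08 ± 0.15 and did not pass. Gzmk, Eomes, Il17a, Ccr6 and Foxp3 had too few UMIs to be tested.

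**Figure D3:**
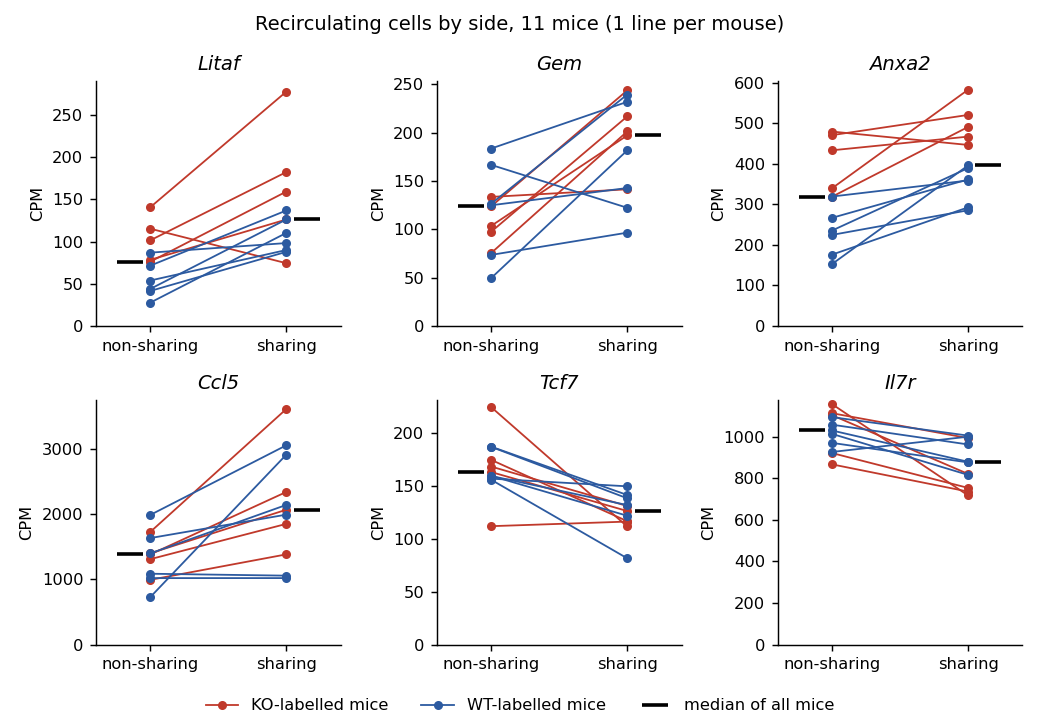
CPM (vertical axes, linear from 0) of 6 genes in non-sharing and effector-sharing recirculating cells, with 1 line per mouse for 5 KO-labelled and 6 WT-labelled mice and the median of all 11 as a black bar. Litaf, Gem and Anxa2 climb in 10 of 11 mice and Ccl5 in 9, while Tcf7 and Il7r drop in 10.

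Depth and quality did not separate the sides. The median UMI count per cell was 3215 ± 201 on the effector-sharing and 3247 ± 213 on the non-sharing side (SD, n = 11 mice, two-sided exact sign-flip permutation p = 0.461). Mitochondrial UMIs made up a median of 0.880% ± 0.0622 and 0.844% ± 0.0596 (exact p = 0.156, adjusted p = 0.387), and the median doublet score 0.0799 ± 0.00787 against 0.0783 ± 0.00633 (exact p = 0.232, adjusted p = 0.387). Clone size did separate them, at a median of 12.5 ± 4.78 against 2.64 ± 0.674 cells, higher in 11 of 11 mice (exact p = 0.000977, the smallest possible, adjusted p = 0.00488), partly by the construction of the rule.

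Clone size and sharing moved together, and their parts in the calls cannot be told apart with the cells at hand. With only clones of 2 to 5 cells on both sides, which left 475 effector-sharing and 710 non-sharing cells of 10 mice, 0 of 2772 genes passed by edgeR and 126 had an unadjusted p under 0.05. All 25 of the called genes tested there kept their sign. Litaf was at 0.58 and Anxa2 at 0.38 on the log2 scale (adjusted p = 0.844 and 0.416), while Tcf7 was at -0.06 and Il7r at -0.08 (adjusted p = 1.00 for both). With sharing clones limited to those with 2 or more effector cells, 61 genes were called, 25 of them from the 26. Which mouse was left out decided part of the calls. Of the 26 genes, 15 were called without any 1 of the mice, among them Ccl5, Litaf, Gem, Gzmb, Anxa2, Vim, Lgals1, S100a4, Il7r and Atp1b3. Tcf7 missed the threshold without KO-labelled mouse 6 or WT-labelled mouse 4 (edgeR adjusted p = 0.074 and 0.052), and Ccr7 without KO-labelled mouse 5 or 6. The call was lost in 8 of 11 leave-outs for Tpi1, in 7 for Pdia6 and Maf, in 6 for Lgals3 and Ppp1r15a, in 5 for Nfkbia, and in 4 for Hspa5 and Jun. Nlk was tested in 9 of the leave-outs and missed the threshold without WT-labelled mouse 4.

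The fate of the clone divided the members further. Recirculating cells whose clones also held cytotoxic cells only were compared with those whose clones held Th17 cells only, in 9 mice with 20 or more cells of each (3 KO-labelled and 6 WT-labelled, 450 against 592 cells). Sums ranged from 69468 to 272893 UMIs for cytotoxic-only and from 105019 to 442784 for Th17-only members. Higher in cytotoxic-only members were 6 of 9 tested cytotoxic and 4 of 17 tested early activation genes. Higher in Th17-only members were 3 of 7 tested Th17 genes and 4 of 12 tested glycolysis genes. The test called 62 of 2720 genes (2.28%), 31 in each direction, and 340 had an unadjusted p under 0.05 (edgeR, mouse as a block).

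Ccl5 led the list. Th17-only members had a lowest, median and highest value of 377, 607 and 1322 CPM, and cytotoxic-only members of 2067, 3642 and 5310 CPM. The groups did not overlap, and Ccl5 was higher in 9 of 9 mice, with a log2 fold change of 2.47 ± 0.15 (SE, edgeR adjusted p = 3.8e-14). Nkg7 (chromosome 7, 43437073 to 43438249, plus strand) was likewise apart, at 354 to 922 CPM in Th17-only and 965 to 1543 CPM in cytotoxic-only members, a rise of 1.13 ± 0.12 (adjusted p = 2.6e-08). Granzyme A, from Gzma, rose by 1.77 ± 0.32 (adjusted p = 0.00073) in 8 of 9 mice but ran from 4.10 to 747 CPM among Th17-only members. WT-labelled animals held both extremes of that range. Gzmb, Cd7, Fasl and Ctsw also rose, which made 6 of 9 tested cytotoxic genes with none lower and a median of 0.58, against 0.01 over all genes tested. The orphan nuclear receptor gene Nr4a2, induced by receptor signals, rose by 1.80 ± 0.25, and the interferon-induced GTPase gene Gbp3 by 0.86 ± 0.22 (adjusted p = 0.030). With Dusp2, Nfkbia and Zfp36, Nr4a2 made 4 of 17 early activation genes that rose, none of them falling.

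Genes higher in Th17-only members led with Tmem176b (chromosome 6, 48833818 to 48841496, minus strand), a membrane protein abundant in Th17 cells. It was at 267, 420 and 562 CPM (lowest, median, highest) in Th17-only members and at 115, 122 and 213 CPM in cytotoxic-only members. Without overlap between the groups, it fell by 1.37 ± 0.12 on the log2 scale toward the cytotoxic-only side (edgeR adjusted p = 1.5e-09). Its neighbour Tmem176a, on the other strand with overlapping ends, fell by 1.37 ± 0.15. Ltb4r1, the leukotriene receptor, fell by 1.29 ± 0.21 with no overlap, and Il1r2, a decoy receptor, by 1.38 ± 0.23, both lower in 9 of 9 mice. The chromatin organiser gene Satb1 fell by 0.56 ± 0.09 and Ermn by 0.92 ± 0.15. Of the glycolysis genes, Ldha fell by 0.40 ± 0.08, Pkm by 0.36 ± 0.08, Pgk1 by 0.42 ± 0.11 and Gapdh by 0.16 ± 0.04, and none of the 12 tested lay above 0. Satb1 belongs to the stem-like and recirculation list and was the 1 call among its 12 tested genes. Tcf7 was at -0.13 ± 0.15, Il7r at 0.03 ± 0.07, Klf2 at 0.16 ± 0.12 and S1pr1 at -0.27 ± 0.16 and did not pass (edgeR adjusted p = 0.794, 0.916, 0.627 and 0.513).

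Several defining genes of the effector subsets had too few UMIs for the test between these fates. Il17a had 129 UMIs in the 616 Th17-only members of 10 mice and 14 in the 513 cytotoxic-only members. Gzmk had 20 in Th17-only and 170 in cytotoxic-only members, and Eomes 0 and 17. For Ccl5 and Tmem176b, members lay between the effector subsets. The median CPM of Ccl5 over mice with 20 or more such cells was 11312 CPM in cytotoxic cells of the sharing clones, 3996 CPM in cytotoxic-only members, 1391 CPM in non-sharing members, 627 CPM in Th17-only members and 321 CPM in Th17 cells of the sharing clones. For Tmem176b the same order ran 121, 138, 253, 381 and 799 CPM. Il17a, at 1027 CPM in the Th17 cells of the clones, was at 55.9 CPM in Th17-only members. S1pr1 lay above both subsets, at 110 and 120 CPM in cytotoxic-only and Th17-only members, against 35.2 CPM in the cytotoxic and 20.3 CPM in the Th17 cells of these clones. The authors' clusters rest on the same genes, so these levels describe the cells and carry no test.

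**Figure D4:**
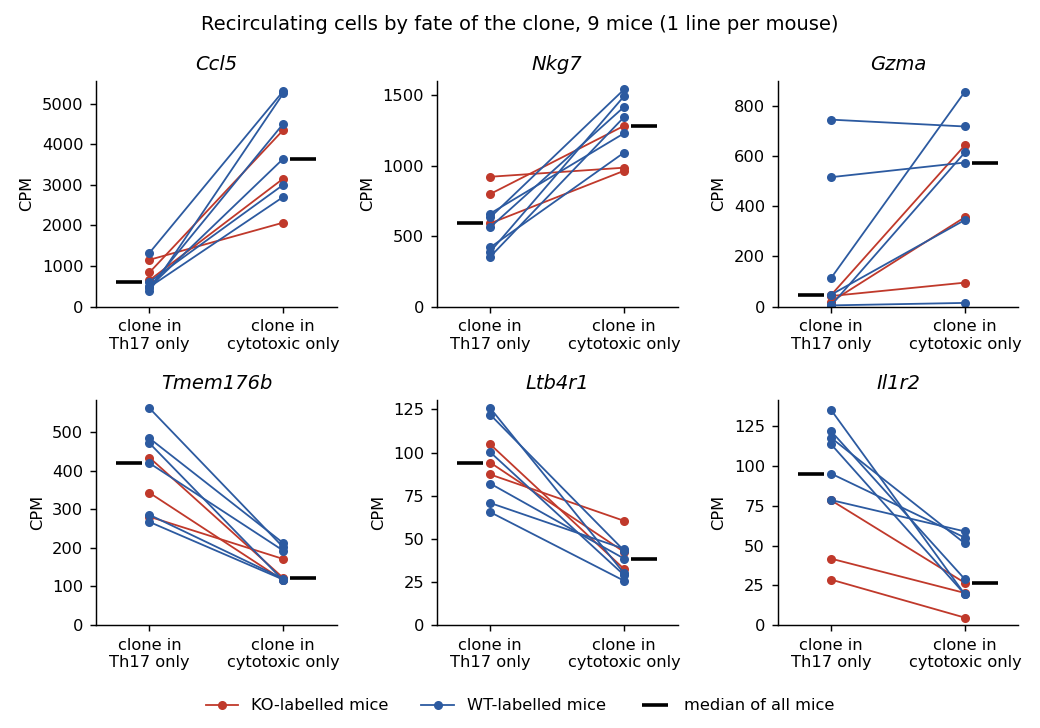
CPM (vertical axes, linear from 0) of 6 genes in recirculating cells whose clones also held Th17 cells only or cytotoxic cells only, with 1 line per mouse (3 KO-labelled, 6 WT-labelled) and the median of all 9 as a black bar. Ccl5 and Nkg7 are higher in cytotoxic-only members in 9 of 9 mice, and Tmem176b, Ltb4r1 and Il1r2 are lower in 9 of 9.

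Of the 62 genes, 26 were called without any 1 of the 9 mice, among them Ccl5, Nkg7, Nr4a2, Gzma, Tmem176a, Tmem176b, Ltb4r1, Satb1 and Ldha. The DESeq2 test called 19 genes, all among the 62. With 40 or more cells of each fate, which left 4 mice, 12 genes were called.

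Each of the 3 sharing fates was also set against the non-sharing cells. These comparisons share their non-sharing cells, so their values are given side by side only. Cytotoxic-only members had 23 calls among 2838 genes (0.81%, 10 mice), Th17-only members 24 among 3056 (0.785%, 10 mice) and members of clones in both 43 among 3485 (1.23%, 9 mice). Ccl5 was at 1.50 ± 0.06, -0.82 ± 0.12 and 0.63 ± 0.18 in this order, the last not passing (edgeR adjusted p = 0.074). Nkg7 was at 0.55 ± 0.07, -0.47 ± 0.08 and 0.48 ± 0.08, and all 3 passed. Ccl5 and Nkg7 were thus lower in Th17-only members than in non-sharing ones. Gzmk, the granzyme gene with too few UMIs for the tests above, was tested only in cytotoxic-only members, where it rose by 1.59 ± 0.24 (adjusted p = 7.6e-05), from a median of 24.4 CPM in non-sharing to 75.3 CPM in cytotoxic-only members. Gem and Anxa2 rose in all 3, by 0.68, 0.76 and 0.83 and by 0.56, 0.44 and 0.54. Gzmb was at 0.88 ± 0.11, 0.04 ± 0.12 and 0.75 ± 0.16, and passed in all but Th17-only members (edgeR adjusted p = 0.971). Klrc1 was at 0.53 ± 0.20, 0.69 ± 0.16 and 1.08 ± 0.20, and passed in all but cytotoxic-only members (edgeR adjusted p = 0.371). Hspa5 passed in Th17-only members (0.33 ± 0.05) and not in the others, with -0.05 ± 0.06 in cytotoxic-only members and 0.19 ± 0.06 in clones with both fates.

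Members of clones in both fates had calls in effector and stem-like genes. Ifng, the type 1 effector cytokine, rose by 1.23 ± 0.12 there (edgeR adjusted p = 2.6e-07), against 0.22 ± 0.19 in cytotoxic-only and 0.05 ± 0.16 in Th17-only members, which did not pass. Its median was 588 CPM in these members, 310 CPM in non-sharing members and 797 CPM in the cytotoxic cells of sharing clones. Cxcr6, a chemokine receptor of tissue T cells, rose by 0.68 ± 0.09, and Il2ra, the high-affinity receptor chain for a growth cytokine, by 0.79 ± 0.14. Litaf rose by 1.44 ± 0.17 (0.92 ± 0.15 in cytotoxic-only and 0.35 ± 0.18 in Th17-only members, the last not passing). Tcf7 fell by 0.56 ± 0.13, Il7r by 0.37 ± 0.08, the signalling receptor gene Slamf6 by 1.02 ± 0.25, Klf3 by 0.84 ± 0.17 and Plac8 by 0.94 ± 0.19. Other genes of the stem-like and recirculation list did not pass there. Klf2, Lef1, Satb1 and S1pr1 were at -0.05 ± 0.11, -0.15 ± 0.13, -0.16 ± 0.09 and -0.37 ± 0.14 (edgeR adjusted p = 0.930, 0.780, 0.560 and 0.253). In cytotoxic-only and Th17-only members Tcf7 was at -0.40 ± 0.13 and -0.33 ± 0.12 and did not pass (adjusted p = 0.167 and 0.286). Clones in both had a median of 12 cells, and whether clone size takes part in these differences was not tested. Differences between the fates in these values were tested only for cytotoxic-only against Th17-only members.

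**Figure D5:**
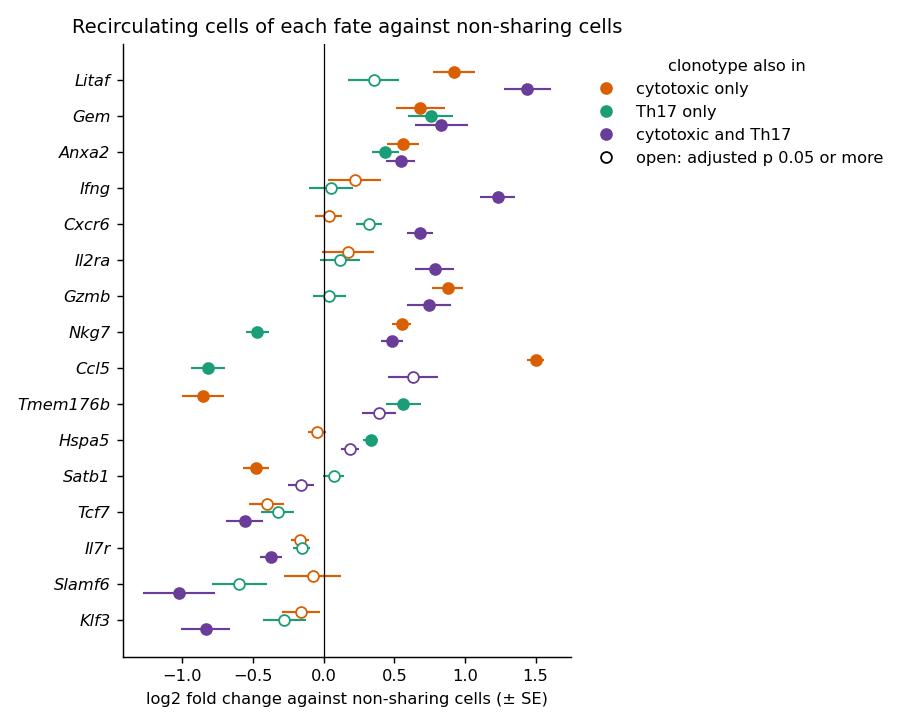
Log2 fold change ± SE (horizontal axis) of 16 genes in recirculating cells of each sharing fate against non-sharing cells, with filled points for adjusted p under 0.05 and open points for the rest; the choice of genes followed a look at their values. Ccl5 lies at 1.50 for cytotoxic-only and -0.82 for Th17-only members, and Ifng at 1.23 for clones with both fates.

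Whether the side difference itself differed between genotypes was tested with an interaction term. By edgeR, 0 of 4269 genes (0%) passed, with 217 at an unadjusted p under 0.05, and DESeq2 called 0 as well (51 unadjusted). Within the 5 KO-labelled mice 19 of 4237 genes (0.448%) were called, and within the 6 WT-labelled mice 7 of 4865 (0.144%). Ccl5 and Litaf were called in each group, at 0.68 and 0.56 for Ccl5 and at 0.79 and 1.05 for Litaf. Ccr7 fell by 1.58 in KO-labelled mice (edgeR adjusted p = 3.1e-05) and stood at -0.19 in WT-labelled mice, and the difference between them, -1.40 ± 0.35, did not pass (adjusted p = 0.445). In KO-labelled mice 1, 3, 4, 5 and 6, Ccr7 went from 30.3, 177, 39.7, 267 and 130 CPM on the non-sharing side to 29.7, 98.2, 1.97, 61.6 and 38.1 CPM on the effector-sharing side. In WT-labelled mice 1 and 5 it went up, from 14.5 to 53.9 and from 34.7 to 89.4 CPM. Il7r was at -0.39 under the KO label and at -0.15 under the WT label, a difference of -0.25 ± 0.10 that did not pass (adjusted p = 0.848). Ifng was at 0.26 and 0.75 (difference -0.49 ± 0.26, adjusted p = 0.954).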

How the data were processed

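A pooled library of 18860 cells and 11971 genes is given as unnormalized UMI counts, as deposited, beside an annotation with each cell's mouse, genotype label, cluster, clonotype and CDR3 sequences, a doublet score and the mitochondrial percent, both deposited by the authors. Tools named in the submitters' processing notes are Seurat 3.1.5 and Cell Ranger 3.1.0, and the builds named there are mm10 and GRCm38. The cell filter, the doublet handling and strand setting are not given in the sources used here, and no doublet caller was run. Each cell's UMI sum equalled its deposited count. Whether donors of the transferred cells were shared is not given, so p-values speak for recipient mice and not for donors. In the paired tests they rest on how the difference within a mouse varied from mouse to mouse. In the comparison of shares between genotypes they rest on the spread between mice.

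UMIs were summed per mouse and side, for mice with 20 or more cells a side, and fitted in R 4.3.3 by edgeR 4.0.16 (TMM, filterByExpr, quasi-likelihood F test, mouse as a block, two-sided). Both sides came from each animal, so the block pairs them. The 106 receptor and immunoglobulin segment genes counted in library sizes but were not tested. The SE was obtained as the size of the log2 fold change over the root of its F value. CPM came from the sums, and a mouse's direction from its log2 ratio with 0.5 UMIs added. Shares were compared over the 924 assignments of 12 mice and cell measures over 2048 sign flips of 11 mice, both exact. The paired fit was tested on simulated data. Some marker genes are not reported here.

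The rule for named genes took the 10 largest called rises and falls (5 for the fates) whose mean log2 CPM reached 4, with 1 direction in all mice but at most 1, which gave 14 and 10 genes, plus a panel of 20 genes and list members with the smallest p. Other called genes, and the genes shown for each fate against non-sharing cells, were chosen after their values were seen. The members and the 15 gene lists (217 of their 222 genes in the table) were chosen with earlier results of these data known. Gene positions are from GENCODE vM21. Alternatives, given in the closing section, changed scaling, filter, test, block, cell minimum, clone weight, clone size, sharing threshold, doublets, genotype and single mice. Those added after seeing the data were clones by beta chain, each fate against non-sharing cells, the largest clone or clonotypes in 2 mice left out, and cells thinned to 1500 UMIs.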

Additional observations from a re-analysis of the deposited data

Results flagged for a closer look

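Outlying mice were looked for in 152 groups of 4 to 10 mice, with Dixon's test at 95% on the log2 ratio of CPM within a mouse. The 9 found are near the rate of about 1 in 20 that chance gives. For effector-sharing against non-sharing cells, KO-labelled mouse 1 stood alone for Litaf at -0.60, the nearest of the other KO-labelled mice being at 0.68. It stood alone for Klrc1 as well, at -1.01 with the nearest at 0.61. KO-labelled mouse 5 was apart for Crip1 at -0.11 (nearest 0.32). Among WT-labelled mice, mouse 5 was apart for Ccl5 at 1.995 (nearest 0.62) and for Nfkbia at 0.29 (nearest -0.15). That animal had 38 non-sharing cells and KO-labelled mouse 1 had 42 effector-sharing cells.

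For cytotoxic-only against Th17-only members, KO-labelled mouse 6 was apart for Dusp2, a phosphatase gene of early activation, at -0.17 (nearest 0.60). WT-labelled mouse 5 was apart for Lgals3 at 2.80 (nearest 1.19) and for the actin-binding gene Tmsb10 at -0.41 (nearest -0.22). WT-labelled mouse 6 was apart for the linker histone gene H1f0 at -1.87 (nearest -0.81). Tmsb10 missed the threshold without WT-labelled mouse 5.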

How the results depend on the processing

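Effector-sharing against non-sharing cells gave 26 called genes, and 18 to 39 when single mice were left out. Another scaling (DESeq2 size factors) called the same 26. With clones by beta chain 35 genes were called, 21 of them from the 26. The count was 65 with no filter on low counts, 14 by the DESeq2 test, 61 with 2 or more effector cells per sharing clone, 43 for clones in both fates, 7 in WT-labelled mice alone, 15 with cells thinned to 1500 UMIs, and 0 by edgeR with clones of 2 to 5 cells (126 unadjusted). Called members of the gene lists numbered 17, and 29, 9, 30, 6, 10 and 0 under these settings, without that for both fates. They were 11 with at most 3 cells per clone, 10 in KO-labelled mice, and 11 to 22 with single mice left out, 11 being without KO-labelled mouse 6.

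Both sides came from the same mice, so the pairing is by animal. With no replicate block, edgeR called 0 genes for the sides (285 unadjusted) and 0 members of lists, 36 for the fates, and 0 for the interaction (183 unadjusted).

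Cytotoxic-only against Th17-only members gave 62 genes, and 41 to 56 when single mice were left out, with 41 without WT-labelled mouse 1 and without mouse 4. There were 19 by DESeq2, 12 with 40 or more cells a side, 36 without the largest clones and 19 with thinned cells. The interaction called 0 genes, 9 with no filter, 1 with 40 or more cells a side, and 0 to 1 with single mice left out, the 1 being without WT-labelled mouse 5.

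The KO-minus-WT difference in the effector-sharing share was -24.7 percentage points. It turned to 1.93 with effector cells thinned to the lowest mouse and the members unchanged (exact permutation p = 0.656). The difference was -14.0 with 2 or more recirculating cells per clone (exact p = 0.0152) and -27.1 with clones by beta chain (exact p = 0.00216). Small sums kept genes under the count filter out of the tests.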
